A study of Mus musculus with 12 samples.

Results

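Apoe and 6 other genes of brain cholesterol handling were followed through 12 cortex libraries. They were taken by gene name from the deposited expression tables, and each of the 7 names matched 1 of 48526 rows in both tables. The 7 are Apoe, the receptor gene Lrp1, the efflux transporter genes Abca1 and Abcg1, the synthesis genes Hmgcs1 and Sqle, and Cyp46a1, which makes the sterol that leaves the brain. The libraries came from untreated mice on a C57Bl/6 background, 3 in each of 4 groups: non-transgenic controls at 3 months, TAU58/2 transgenics at 3 months, controls at 10 months and TAU58/2 transgenics at 10 months. The TAU58/2 line makes human P301S tau, a mutant form found in familial frontotemporal dementia, from the Thy1 promoter in neurons. Levels are FPKM, fragments scaled to transcript length and to library size, as the authors deposited them. Libraries are named by age, genotype label and the replicate number of the label.

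The brain makes its own cholesterol, because plasma lipoproteins do not cross the blood-brain barrier. Astrocytes are known to load cholesterol through ABC transporters onto apolipoprotein E particles, which neurons take up through LRP1 and related receptors. Neurons clear the surplus by turning it into 24S-hydroxycholesterol with CYP46A1, and low sterol releases SREBP transcription factors that switch on the genes of synthesis.

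Library totals ran from 125933 to 158077 FPKM. Relative depth was not measured but inferred from the most common ratio of the lowest values of a library to those of 10-month control 1. It spanned 1 to 1.37, with 7.80% to 12.5% of these low genes at that ratio and the absolute depth unknown. Neuronal markers summed to between 599 and 1003 FPKM and astrocyte markers to between 341 and 649 FPKM per library. Sums ran from 84.5 to 133 FPKM for microglia, from 238 to 640 FPKM for oligodendrocytes and from 2.35 to 22.0 FPKM for endothelium. The sum for choroid plexus ran from 5.24 to 729 FPKM. Of its 4 genes only Ttr was tested, and Ttr alone ran from 5.24 to 728 FPKM. The 10-month transgenic 1 library held 11228 FPKM of Gh, the growth hormone gene of the pituitary, against 0 to 37.4 FPKM in the others. Mapt and Thy1, which may count transgene fragments in part, separated the genotype labels at 3 months and did not at 10 months. At 10 months Mapt was at 42.7, 8.13 and 9.08 FPKM in controls and at 42.6, 12.4 and 3.31 FPKM in transgenics. The part of the transgene in these values was not tested. The 10-month directions below thus rest on labels that Mapt and Thy1 did not follow. Among 4390 genes whose median over libraries was 5 FPKM or more, 40 to 98 were listed at exactly 0 in a given library, the most in 10-month transgenic 3.

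Of the 7 genes, 6 reached a mean of 1 FPKM in at least 1 group and were tested. None differed between genotypes or ages past the threshold (limma on log2(FPKM + 0.1), adjusted p of 0.05 over 9846 genes). The count was 0 of 6 for genotype at 10 months, where 0.0102% of all genes tested passed, and 0 of 6 for genotype at 3 months, where 0.0406% passed. It was also 0 of 6 for the age by genotype interaction (0.0508% of all genes), for age in controls (0.0305%) and for age in transgenics (0.0203%). Genotype groups overlapped for all 6 genes at both ages, while they did not overlap for 8.26% of all genes at 10 months and 7.98% at 3 months. Over these 30 tests the lowest limma adjusted p was 0.969, and 1 test had an unadjusted p under 0.05, that of Hmgcs1 at 3 months. Over all genes an unadjusted p under 0.05 was found for 4.4% at 10 months and 3.39% at 3 months between genotypes, for 3.32% in the interaction, and for 4.19% and 4.31% with age in controls and in transgenics. Without the 10-month transgenic 1 library, the one rich in Gh, the 10-month log2 fold changes were -0.05 for Apoe, -1.98 for Lrp1, -0.23 for Abcg1, 0.76 for Hmgcs1, -0.019 for Sqle and 0.07 for Cyp46a1, and none passed the threshold.

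**Figure D1:**
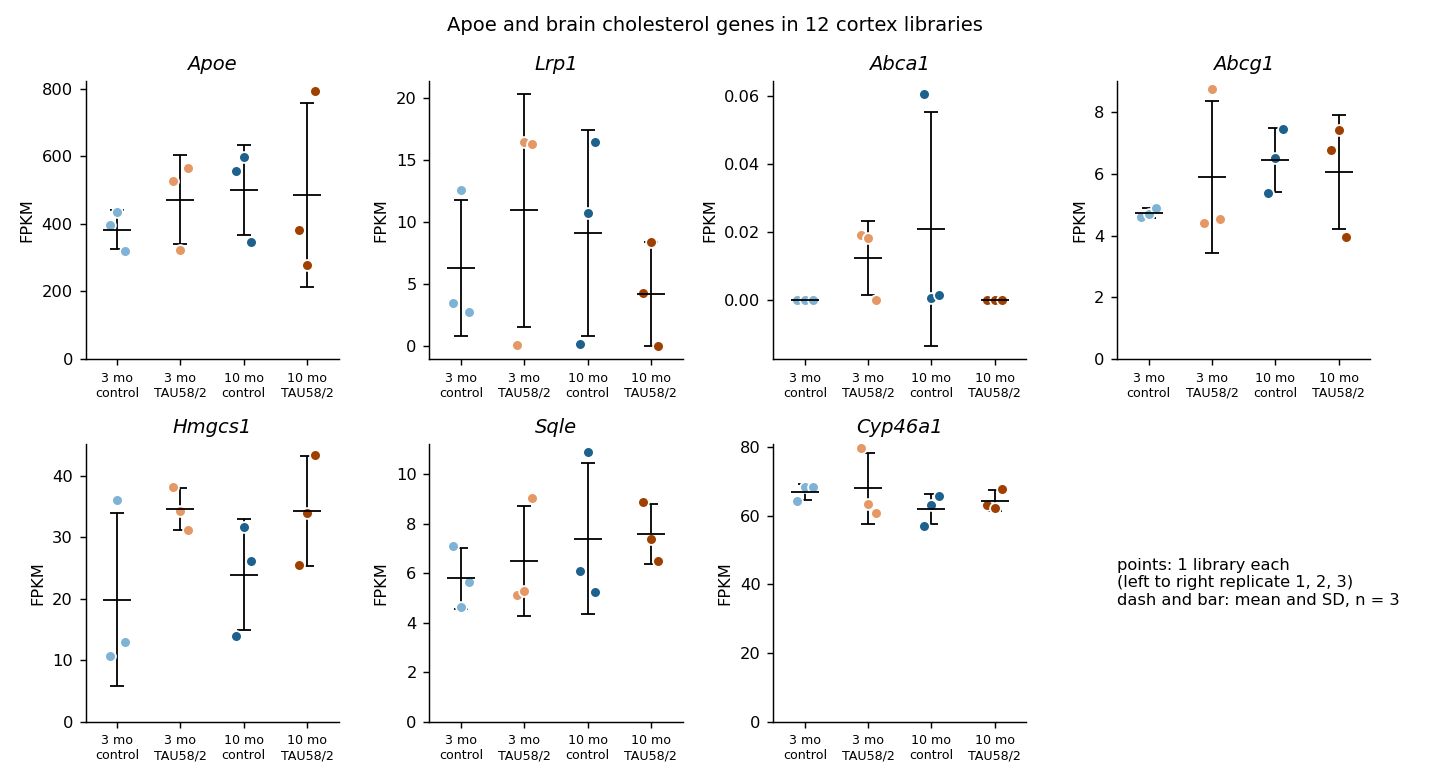
Level of each of the 7 genes (FPKM, vertical axis) in the 12 libraries, grouped by age and genotype label; each point is 1 library, and the dash and bar are the mean and SD of 3 libraries. Apoe ranged from 278 to 793 FPKM and Cyp46a1 from 57.2 to 79.9 FPKM, whereas Abca1 stayed at or below 0.0605 FPKM and Lrp1 was at or below 0.169 FPKM in 3 libraries.

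The promoters of Hmgcs1 and Cyp46a1 are shown because they belong to the gene with the largest genotype difference among those detected in every library and to the gene with the smallest spread. The RefSeq promoter table (GRCm38.p6, 250 bases before to 50 bases after each start) held 5 of the 7 genes, with no entry for Abcg1 or Sqle. The Hmgcs1 window lies at chr13:119690101-119690400 on the plus strand. Capitals mark a sterol regulatory element of the form TCACNCCAC, the class of sequence that SREBPs bind, and 4 CCAAT boxes, here read as ATTGG on the opposite strand.
Hmgcs1: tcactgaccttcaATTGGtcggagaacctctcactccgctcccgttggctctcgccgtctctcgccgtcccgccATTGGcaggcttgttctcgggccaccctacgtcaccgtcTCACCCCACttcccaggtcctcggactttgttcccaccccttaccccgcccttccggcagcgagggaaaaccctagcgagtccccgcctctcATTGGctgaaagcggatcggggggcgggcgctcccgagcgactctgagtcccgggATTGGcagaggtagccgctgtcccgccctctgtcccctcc
The Cyp46a1 window lies at chr12:108334066-108334365 on the plus strand, and capitals mark 6 GC boxes (GGGCGG), the class of sequence that Sp factors bind.
Cyp46a1: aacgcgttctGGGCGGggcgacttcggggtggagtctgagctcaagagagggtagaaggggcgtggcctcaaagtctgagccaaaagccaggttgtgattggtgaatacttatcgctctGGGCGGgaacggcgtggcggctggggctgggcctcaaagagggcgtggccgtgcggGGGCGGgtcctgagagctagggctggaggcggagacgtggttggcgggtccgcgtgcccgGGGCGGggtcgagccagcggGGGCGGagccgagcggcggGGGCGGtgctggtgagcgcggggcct

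Both strands were searched for the exact letters of each motif, and the motifs do not overlap in these windows. The sterol element TCACCCCAC of Hmgcs1 runs from 137 to 129 bases before the start. The form TCACNCCAC stood in 1.24% of all 32851 promoter windows of this length, and Hmgcs1 was the 1 of 15 cholesterol synthesis genes in the table that held it. CCAAT was in 37.4% of windows and the GC box in 35.7%, and each was in 14 of the 15 synthesis genes. The Cyp46a1 window is 70.3% G and C and also holds 1 CCAAT match, which is not in capitals. The Hmgcs1 window also holds 3 GC boxes, counted over both strands, which are not in capitals either. None of the 3 Apoe windows in the table held any of the 3 motifs. A match here is a match of letters and not a measured binding site.

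Apoe, the lipid carrier, had by far the highest level of the 7 genes, and its spread between animals was wider than any difference between groups. The gene lies on chromosome 7 from 19696109 to 19699188 on the minus strand (GRCm38), with a longest transcript of 1408 bases in 4 exons. At 3 months it was at 396, 434 and 319 FPKM in controls 1 to 3 and at 528, 322 and 565 FPKM in transgenics 1 to 3. The 10-month levels were 555, 596 and 347 FPKM in controls and 382, 278 and 793 FPKM in transgenics. The groups overlapped at both ages, and the 10-month transgenics held both the lowest and the highest library of all 12. The log2 fold change of transgenics over controls was 0.27 at 3 months (SE 0.38, 95% interval -0.59 to 1.12) and -0.15 at 10 months (SE 0.38, 95% interval -1.004 to 0.70). Omitting 10-month transgenic 3 gave -0.58 at 10 months, and omitting transgenic 2 gave 0.18. Age gave a log2 difference of 0.36 in controls (SE 0.38) and -0.06 in transgenics (SE 0.38). Each age has its own deposited table, so age and table cannot be told apart.

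The 10-month transgenic 3 library, which held the highest Apoe, also held the highest summed astrocyte markers (649 FPKM) and 474 FPKM of Aldoc, an astrocyte-enriched glycolytic enzyme that lay between 192 and 242 FPKM in the other 11 libraries. Aldoc thus made up most of that sum, and other markers of the list went the opposite way: the same library held the lowest Slc1a2, the main astrocyte glutamate transporter (3.66 FPKM, against up to 170 FPKM), and the lowest Aqp4, the astrocyte water channel (0.207 FPKM, against up to 12.5 FPKM). In whole cortex, fewer cells of a type and less RNA per cell cannot be told apart, and the part of astrocyte content in the Apoe values was not tested. The lowest and highest astrocyte sums were 350 and 553 FPKM in 3-month controls, 346 and 499 FPKM in 3-month transgenics, 400 and 580 FPKM in 10-month controls and 341 and 649 FPKM in 10-month transgenics, with none of the 10 markers at 0 throughout. Gja1, the astrocyte gap junction gene, was itself split, with 6 libraries at or below 1.595 FPKM and 6 between 39.7 and 46.7 FPKM.

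The genes beside Apoe did not share its level. Tomm40, which encodes the channel of the mitochondrial outer membrane and whose 3' end lies 2125 bases from Apoe, ranged from 7.54 to 15.4 FPKM. Apoc1 stayed at or below 0.936 FPKM, and Apoc4 and Apoc2 were listed at 0 in all 12 libraries. Clptm1 ranged from 9.68 to 42.5 FPKM, Nectin2 from 1.10 to 1.95 FPKM and Bcam from 0.571 to 4.31 FPKM. Of the 4 tested neighbours none passed the threshold at either age; the smallest p was that of Tomm40 at 3 months (log2 fold change -0.46, SE 0.25, limma unadjusted p = 0.0910, adjusted p = 1).

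Other apolipoproteins of the brain were abundant too. Clu, which encodes clusterin, lay between 154 and 222 FPKM, and Apod, the gene of apolipoprotein D, between 32.7 and 103 FPKM. Apoa1 and Apob, the main apolipoproteins of plasma, were listed at 0 in every library. Apod was at 37.4, 62.3 and 32.7 FPKM in 3-month transgenics and at 103, 78.3 and 93.7 FPKM in 10-month transgenics, so these groups did not overlap, as was so for 9.43% of all genes in this comparison. Its log2 difference with age in transgenics was 1.10 (SE 0.27), which did not pass the adjustment (limma unadjusted p = 0.00234, adjusted p = 0.721). Age and deposited table cannot be told apart in this comparison. Of the 5 tested genes of apolipoproteins and lipidation, 4 had positive values at 10 months and 1 at 3 months, with medians of 0.09 and -0.13 on the log2 scale, beside medians of 0.01 and 0.02 for all genes.

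Lrp1, the neuronal receptor that takes up Apoe particles, gave a genotype estimate with very wide limits, and its levels fell on separate steps. It lies on chromosome 10 from 127538161 to 127621148 on the minus strand, and its longest transcript has 14888 bases in 89 exons. At 3 months it was at 3.49, 12.6 and 2.76 FPKM in controls and at 0.0850, 16.4 and 16.3 FPKM in transgenics. Older animals had 0.169, 10.7 and 16.5 FPKM in controls and 4.27, 8.38 and 0 FPKM in transgenics. The 3 libraries at or below 0.169 FPKM came from 3 different groups, and the other 9 lay between 2.76 and 16.5 FPKM. The within-group SD of the log2 values was 3.08, larger than in 97.6% of all tested genes. The log2 fold change was -1.23 at 10 months (SE 2.26, 95% interval -6.28 to 3.81) and -0.46 at 3 months (SE 2.26, 95% interval -5.51 to 4.58).

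At 3 months the sign for Lrp1 depended on the scale. The mean level was higher in transgenics, at 10.9 ± 9.39 against 6.29 ± 5.49 FPKM (SD, n = 3), while the log2 fold change was negative. The authors' deposited table has the same opposition, with a fold of 0.732 beside group means of 6.29 FPKM in controls and 10.9 FPKM in transgenics. With a pseudocount of 1 the value turned to 0.17, and without the 3-month transgenic 1 library, the library at 0.0850 FPKM, it turned to 1.70. At 10 months it turned to 0.74 without transgenic 3, the library listed at 0. An antisense gene inside Lrp1, Gm16217, was listed at 0 throughout.

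**Figure D2:**
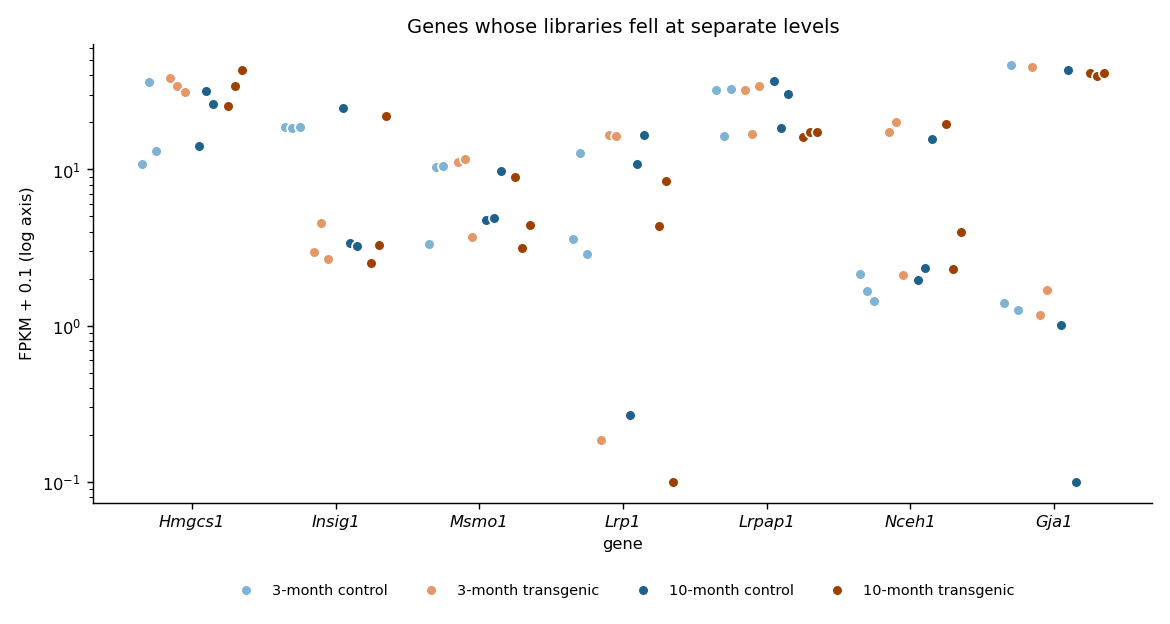
Level of 7 genes in the 12 libraries (FPKM + 0.1, log axis), coloured by group, each point being 1 library; Hmgcs1 and Lrp1 are joined by 5 genes picked after their values were seen. Insig1 lay between 2.43 and 4.47 FPKM in 7 libraries and between 18.3 and 24.5 FPKM in 5, and Gja1 at or below 1.595 FPKM in 6 and between 39.7 and 46.7 FPKM in 6.

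Levels of this kind were common in the tables. The largest gap between neighbouring libraries, with at least 2 libraries on each side, was 3.41 on the log2 scale for Lrp1 and 0.86 for Hmgcs1. It was at least 1 in 33.7% of all 9846 tested genes, in 10 of the 55 tested pathway genes and in 1 of the 6 tested genes of the set, Lrp1. For the others it was 0.28 (Apoe), 0.27 (Abcg1), 0.26 (Sqle) and 0.05 (Cyp46a1).

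In the lipoprotein receptor list Lrpap1, which encodes a chaperone of LRP1, lay between 16.1 and 18.4 FPKM in 6 libraries. In the other 6 it lay between 30.4 and 36.5 FPKM. All 3 10-month transgenic libraries were on the lower level, together with 1 library of each other group. Its log2 fold change at 10 months was -0.70 (SE 0.37, limma unadjusted p = 0.0873, adjusted p = 0.969). Vldlr, a receptor of Apoe and reelin, had a log2 fold change of -1.55 at 3 months (SE 0.95), with transgenic 3 listed at 0. Of the 6 tested receptor genes, 5 had negative values at 10 months (median -0.56, beside 0.01 for all genes) and 3 at 3 months, and none passed the threshold.

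Abca1, the transporter that starts the loading of Apoe with lipid, was practically undetected. It was listed at 0 in all 3 controls at 3 months and in all 3 transgenics at 10 months. It was at 0.0192, 0.0181 and 0 FPKM in 3-month transgenics and at 0.0605, 0.000598 and 0.00144 FPKM in 10-month controls. The gene lies on chromosome 4 from 53030787 to 53159895 on the minus strand, with a longest transcript of 10262 bases in 50 exons. With every library near or at 0 it was not tested, and no fold is given. Because genes of high median are also listed at 0 in these tables, a listed 0 does not show that the transcript was absent.

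Abcg1, which moves cholesterol onto particles that already hold lipid, was detected at a few FPKM in every library. It lies on chromosome 17 from 31057675 to 31117988 on the plus strand. At 3 months it was at 4.598, 4.71 and 4.89 FPKM in controls and at 4.41, 8.75 and 4.53 FPKM in transgenics. At 10 months it was at 5.39, 6.52 and 7.47 FPKM in controls and at 6.78, 7.43 and 3.96 FPKM in transgenics. Genotype groups overlapped at both ages, and the single high value at 3 months set that group's mean. The log2 fold change of genotype was 0.24 at 3 months (SE 0.32, 95% interval -0.48 to 0.96), -0.08 without 3-month transgenic 2, and -0.13 at 10 months (SE 0.32, 95% interval -0.85 to 0.59).

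All 3 older control libraries held more Abcg1 than all 3 younger ones, a separation that 10.1% of all genes showed in 1 direction or the other. The log2 difference was 0.43 (SE 0.32, 95% interval -0.29 to 1.15) and did not pass (limma unadjusted p = 0.215, adjusted p = 0.994). The 2 ages stand in separate deposited tables, so age and table cannot be told apart.

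Among the regulators of efflux, the liver X receptor gene Nr1h2 lay between 6.78 and 13.2 FPKM, while Nr1h3 stayed at or below 0.210 FPKM. Rxrb, a partner receptor, had log2 fold changes of -0.43 at 3 months and -0.35 at 10 months (SE 0.26 each). Rxrg, another partner, was at 0.60 at 3 months (SE 0.58), and Abcg4, a transporter related to Abcg1, at -0.59 at 10 months (SE 0.43). Of the 7 tested genes of this list 5 had positive values at 3 months (52.1% of all genes) and 2 at 10 months (50.9%), and none passed the threshold.

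Hmgcs1, the enzyme that makes HMG-CoA in the early part of sterol synthesis, had the largest genotype difference of the 5 genes detected in every library. It lies on chromosome 13 from 119690379 to 119708260 on the plus strand. At 3 months it was at 10.7, 36.0 and 12.9 FPKM in controls and at 38.2, 34.4 and 31.3 FPKM in transgenics. At 10 months it was at 14.0, 31.7 and 26.1 FPKM in controls and at 25.5, 34.0 and 43.4 FPKM in transgenics. The 3 lowest libraries, between 10.7 and 14.0 FPKM, were all controls, and the other 9 lay between 25.5 and 43.4 FPKM. Control and transgenic groups overlapped at both ages, because 3-month control 2 and 10-month controls 2 and 3 were at the level of the transgenics.

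The mean of Hmgcs1 at 3 months was 34.6 ± 3.45 FPKM in transgenics and 19.9 ± 14.0 FPKM in controls (SD, n = 3). The log2 fold change was 1.01 (SE 0.45, 95% interval 0.00067 to 2.02, limma unadjusted p = 0.0499), which failed the adjustment (limma adjusted p = 1); 3.39% of all genes had an unadjusted p under 0.05 in this comparison. The 10-month value was 0.56 (SE 0.45, 95% interval -0.45 to 1.57, limma unadjusted p = 0.242, adjusted p = 0.969). The 2 ages did not differ in this effect past the threshold (interaction -0.45, SE 0.64, limma adjusted p = 0.987). Averaged over both ages, a comparison added after the values were seen, it was 0.79 (SE 0.32, limma unadjusted p = 0.0339, adjusted p = 0.9747), where 3.75% of all genes had an unadjusted p under 0.05 and 0.0508% passed.

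Levels of blood genes at the same age also differed by genotype label, though none passed the threshold. The 5 blood genes, mostly of hemoglobin, summed to between 14.9 and 25.1 FPKM in 3-month controls and between 35.4 and 142 FPKM in 3-month transgenics, and Alas2 had a median of 0. Of the 4 tested, 0 passed (lowest limma adjusted p 0.914) and 4 had positive values (median 1.87, beside 0.02 for all genes). The 2 groups did not overlap for 3 of the 4, as was so for 7.98% of all genes. A limma unadjusted p under 0.05 was found for 3 of the 4, beside 3.39% of all genes. At 10 months the sums overlapped, at 12.7 to 35.8 FPKM in controls and 21.6 to 72.3 FPKM in transgenics. Oligodendrocyte markers, from cells that make much cholesterol for myelin, summed to between 310 and 453 FPKM in 3-month controls and between 318 and 529 FPKM in 3-month transgenics, with 4 of 8 positive (median 0.03). At 10 months their sums were 238 to 417 FPKM in controls and 322 to 640 FPKM in transgenics. Of the 8 markers, 8 had positive values (median 0.89), beside 50.9% positive and a median of 0.01 for all genes. A limma unadjusted p under 0.05 was found for 2 of the 8, beside 4.4% of all genes. The threshold was passed by 0 of the 8, beside 0.0102% of all genes. The part of blood or oligodendrocyte content in the Hmgcs1 values, or in those of the other cholesterol genes, was not tested at either age.

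The size of the Hmgcs1 difference rested on the low control libraries. At 3 months it was 0.67 without control 1 (limma unadjusted p = 0.187), 0.81 without control 3 and 1.54 without control 2 (limma unadjusted p = 0.00179, adjusted p = 0.662). It stayed positive when any single library was left out, and so did the values at 10 months (0.22 to 0.80) and over both ages (0.61 to 1.05). The authors' deposited table gives folds of 1.59 at 3 months (p = 0.176) and 1.33 at 10 months (p = 0.375).

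**Figure D3:**
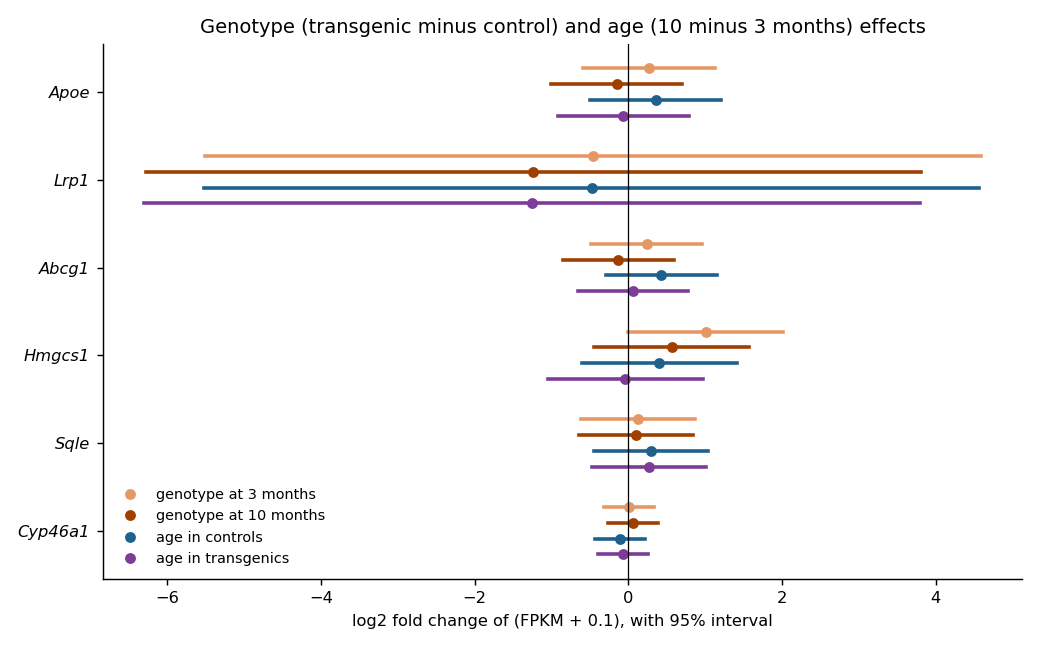
Log2 fold change of (FPKM + 0.1) with its 95% interval (horizontal axis) for the 6 tested genes, for genotype at each age (transgenic minus control) and for age in each genotype (10 minus 3 months). The Hmgcs1 interval at 3 months starts at 0.00067, every other interval holds 0, and the Lrp1 intervals reach from -6.30 to 4.58.

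Sqle, squalene epoxidase, which carries out the first oxygen-dependent step of the sterol branch, had genotype values close to 0. It lies on chromosome 15 from 59315077 to 59331192 on the plus strand. Its 3-month levels were 7.10, 4.64 and 5.65 FPKM in controls and 5.14, 5.27 and 9.05 FPKM in transgenics. In the 10-month libraries Sqle was at 6.08, 10.9 and 5.23 FPKM in controls and at 8.89, 7.41 and 6.50 FPKM in transgenics. The groups overlapped at both ages, and the highest library of all was a 10-month control. Between genotypes the log2 fold change was 0.13 at 3 months (SE 0.33, 95% interval -0.61 to 0.87) and 0.10 at 10 months (SE 0.33, 95% interval -0.64 to 0.84).

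Of the 20 listed genes of cholesterol synthesis 17 were tested, and none passed the threshold in any comparison. At 3 months 15 of the 17 had positive values and 2 negative ones, with a median of 0.15, beside 52.1% positive and a median of 0.02 for all genes. The 3-month control 1 library had a large share in this count: without it 10 of 17 were positive, with a median of 0.08. It held the lowest Hmgcs1 (10.7 FPKM), the lowest Cyp51 (4.82 FPKM) and the lowest Idi1 (7.19 FPKM) of all 12 libraries. The same library held the most Ttr, a gene of the choroid plexus, at 728 FPKM against 5.24 and 10.2 FPKM in the other 3-month controls. High Ttr was also found in 3-month transgenic 3 (300.4 FPKM) and 10-month transgenic 1 (439 FPKM), and its part in the synthesis values was not tested. Under size factors and under quantile normalization 14 of 17 were positive. At 10 months the list was split, with 8 positive, 9 negative and a median of -0.05.

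Single steps of the pathway had values of either sign. Mvk, mevalonate kinase, was at 3.31, 4.06 and 4.31 FPKM in 3-month controls and at 0.574, 0.895 and 2.18 FPKM in 3-month transgenics. Its groups did not overlap, as was so for 7.98% of all genes, and the log2 fold change was -1.78 (SE 0.69, limma unadjusted p = 0.0278, adjusted p = 1). Idi1, the isomerase that makes the branch unit, had a log2 fold change of -0.42 at 10 months (SE 0.25). Fdps, farnesyl diphosphate synthase, named after its values were seen, was at 9.56, 8.48 and 0.0560 FPKM in 3-month controls and at 10.2, 10.7 and 11.4 FPKM in 3-month transgenics.

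**Figure D4:**
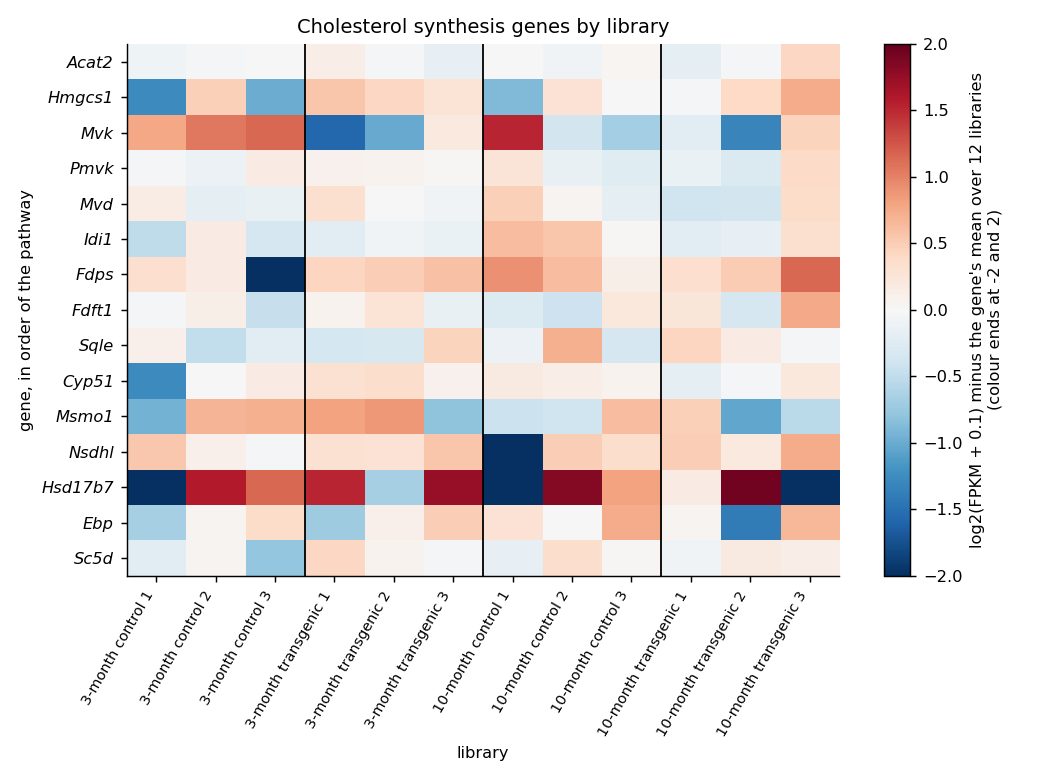
Level of 15 of the 17 tested cholesterol synthesis genes (rows, in pathway order) in the 12 libraries (columns, by group), as log2(FPKM + 0.1) minus each gene's mean over the libraries, with colours ending at -2 and 2. The low Hmgcs1 libraries are 3-month controls 1 and 3 and 10-month control 1.

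Insig1, the gene of a protein that holds the SREBP complex in the endoplasmic reticulum, is itself an SREBP target. Insig1 had the clearest separation at 3 months of the sterol sensing genes. It was at 18.7, 18.3 and 18.7 FPKM in 3-month controls and at 2.85, 4.47 and 2.56 FPKM in 3-month transgenics. At 10 months it was at 24.5, 3.30 and 3.13 FPKM in controls and at 2.43, 3.16 and 21.9 FPKM in transgenics. The groups were apart at 3 months, as was so for 7.98% of all genes, and shared both levels at 10 months. The log2 fold change at 3 months was -2.50 (SE 0.90, limma unadjusted p = 0.0193) and did not pass (limma adjusted p = 1). With only the 3-month libraries in the fit it passed (limma adjusted p = 0.0473), as 1 of 14 genes called in that fit. It was the 1 pathway call in 130 alternative fits. The sign is opposite to that of Hmgcs1 at the same age.

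Among the other sterol sensing genes, Srebf2, the SREBP gene most tied to sterol synthesis, had a log2 fold change of -0.23 at 10 months (SE 0.27). Mbtps1, a protease that releases SREBPs, had one of 0.34 at 10 months (SE 0.34). Mbtps2, the second protease, had one of 0.81 at 3 months (SE 0.74), where 3-month control 3 was at 0.0947 FPKM. In the comparison of ages within transgenics all 7 genes of this list had positive values (median 0.46, beside 54.1% positive and a median of 0.05 for all genes), and none passed the threshold. In transgenics they were also 7 of 7 under size factors (median 0.41) and quantile normalization (median 0.41). With age in controls 5 of the 7 had positive values, beside 56.0% of all genes. The median in controls was 0.70, or 0.64 under size factors and 0.32 under quantile normalization, beside 0.06 for all genes in the main fit. Age and deposited table cannot be told apart in either comparison.

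Genes of intracellular cholesterol transport and storage were positive in 5 of 6 at 3 months (median 0.58), beside 52.1% positive and a median of 0.02 for all genes. At 10 months 3 of 6 were positive, beside 50.9% of all genes. Nceh1, a cholesteryl ester hydrolase, was at 2.05, 1.56 and 1.33 FPKM in 3-month controls and at 17.3, 20.1 and 2.01 FPKM in 3-month transgenics, a log2 difference of 2.39 (SE 1.09, limma unadjusted p = 0.0538, adjusted p = 1). High levels of Nceh1 were also found in 10-month control 3 (15.5 FPKM) and 10-month transgenic 1 (19.3 FPKM). Osbp, which moves sterol between membranes, had a log2 fold change of 0.72 at 3 months (SE 0.37). Lipa, the lysosomal acid lipase, was at -1.83 at 10 months (SE 1.32), where 10-month transgenic 3 was listed at 0, and Npc1, the lysosomal cholesterol exporter, at 0.61 (SE 0.49). No gene of this list passed the threshold.

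Cyp46a1, the neuronal enzyme of cholesterol removal, was the steadiest of the 7 genes and gives the narrowest limits. It lies on chromosome 12 from 108334381 to 108362234 on the plus strand. The 3-month levels were 64.4, 68.4 and 68.4 FPKM in controls and 79.9, 63.4 and 60.8 FPKM in transgenics. The 10-month libraries held 57.2, 63.2 and 65.8 FPKM in controls and 63.1, 62.3 and 67.9 FPKM in transgenics. All groups overlapped, and the highest library was 1.40 times the lowest. Transgenics differed from controls by a log2 fold change of 0.01 at 3 months (95% interval -0.31 to 0.34) and 0.06 at 10 months (95% interval -0.27 to 0.38). As a fold, the 3-month interval runs from 0.804 to 1.26.

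The within-group SD of Cyp46a1 was 0.13 on the log2 scale, and 1.28% of all tested genes had a smaller one. Among the 500 genes nearest in level the share was 4%. The median SD of all tested genes was 0.73, and the SDs of the other genes were 0.38 for Abcg1, 0.40 for Sqle, 0.51 for Apoe and 0.60 for Hmgcs1. Other oxysterol enzymes were low. Cyp7b1 lay between 2.47 and 4.55 FPKM and had log2 fold changes of -0.41 at 3 months and -0.14 at 10 months (SE 0.26 each). Ch25h, cholesterol 25-hydroxylase, was at or below 2.09 FPKM, with 1.05 at 3 months and -0.42 at 10 months (SE 0.82 each). Its level was listed at 0 in 3-month control 1.

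**Figure D5:**
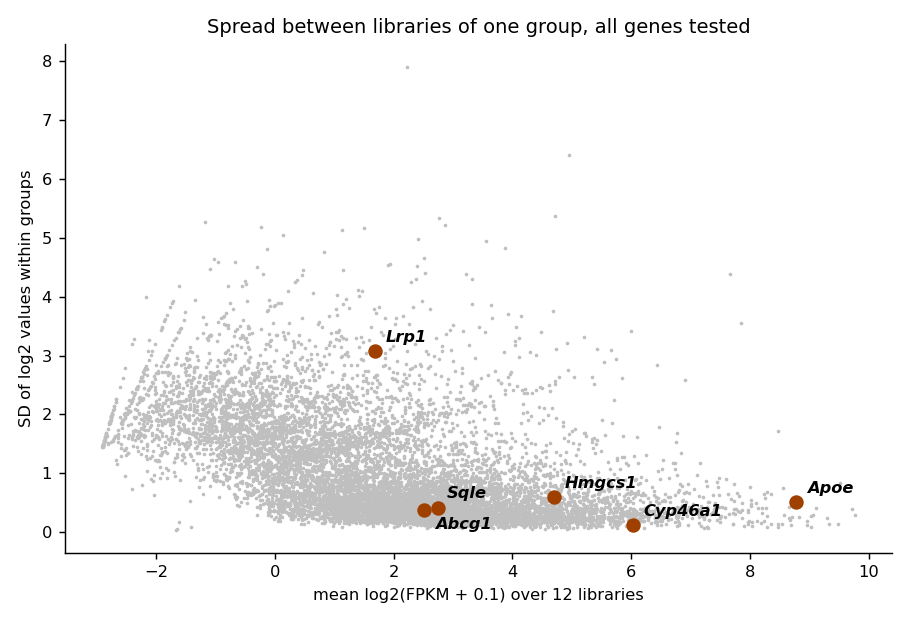
SD of the log2 values within groups (vertical axis) against the mean log2(FPKM + 0.1) over 12 libraries (horizontal axis) for all genes tested, with the 6 tested genes of the set marked. Cyp46a1 lies at the lower edge with an SD of 0.13 and Lrp1 near the upper edge with 3.08.

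By mean level over groups, per length of transcript, Apoe stood above Cyp46a1, Cyp46a1 above Hmgcs1, and Hmgcs1 above Lrp1, Sqle and Abcg1, with Abca1 last. The library ranges of Apoe (278 to 793 FPKM), Cyp46a1 (57.2 to 79.9 FPKM) and Hmgcs1 (10.7 to 43.4 FPKM) did not meet. Those of Sqle (4.64 to 10.9 FPKM), Abcg1 (3.96 to 8.75 FPKM) and Lrp1 (0 to 16.5 FPKM) overlapped, and the highest Sqle and Lrp1 libraries reached past the lowest Hmgcs1 library.

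Correlations were computed for the tested genes, so not for Abca1. Over the 15 pairs of the 6 tested genes, Pearson's r of the log2 values in 12 libraries ran from -0.629 to 0.582 and Spearman's rho from -0.699 to 0.629. No pair passed after Benjamini-Hochberg adjustment of the permutation p-values (100000 permutations, two-sided; lowest adjusted p 0.261 for Pearson and 0.165 for Spearman). The most negative r was that of Apoe and Abcg1 (r = -0.629, permutation p = 0.0308; rho = -0.643, permutation p = 0.0287), and it was -0.428 without the 2 libraries farthest from the median of Apoe. For Sqle and Cyp46a1 rho was -0.699 (permutation p = 0.0138) and r -0.475 (permutation p = 0.117), or -0.438 without the 2 libraries farthest from the median of Sqle. For Abcg1 and Lrp1 rho was 0.629 (permutation p = 0.0329) and r 0.582 (permutation p = 0.0496), or 0.463 without the 2 farthest from the median of Abcg1. Hmgcs1 and Sqle, of the same pathway, had an r of -0.0032 (permutation p = 0.992) and a rho of -0.294 (permutation p = 0.354).

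The genes whose levels most resembled Apoe over the 12 libraries were Pla2g7 (Spearman's rho 0.951, 1.11 to 40.0 FPKM), Mrpl30 (0.951, 2.94 to 12.9 FPKM) and Wdr4 (0.881, 0.372 to 3.402 FPKM). For Hmgcs1 they were Acaa1a (0.888), Kctd13 (0.874) and Dctpp1 (0.853). For Sqle they were Rpap1 (0.872), Tmem205 (0.860) and Herc4 (0.838). These are the highest of 9846 tested genes in libraries that share tissue and preparation, and they are given as a description.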

How the data were processed

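Stranded, ribosome-depleted total RNA libraries were made from the cortex of 12 mice, 3 per age and genotype, per the labels' protocols. The values are FPKM per gene and library deposited by the authors, a table for each age. The submitters' processing notes name StringTie 1.3.0, HISAT2 2.0.4, R 3.4.2, SAMtools and the builds mm10 and GRCm38. For options and annotation, nothing is given in the sources used here. Both deposited tables also hold the authors' fold change, a ratio of the genotypes, with a log2 version, p-values and q-values, and no test is named per the file headers. Read counts were not used, so depth is inferred only in relative terms and no detection floor is given.

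The 9846 genes whose mean reached 1 FPKM in any group were analysed as log2(FPKM + 0.1), which understates the changes of low genes, in a single fit over the 12 libraries (limma 3.58.1, R 4.3.3; a mean per group, eBayes with trend and robust), with Benjamini-Hochberg adjustment over all genes tested and a threshold of 0.05. Both tables entered this fit on the untested assumption that neither was scaled on its own. The study's design text calls the libraries biological replicates, and each was compared with every other; 0 pairs were identical. The 7 genes and the gene lists (8 of pathways with 73 genes, 8 of cell types with 53) were chosen with earlier results of these data known. Named are the 7 genes, each pathway list's genes past the threshold and the 2 with the smallest p in each genotype comparison, the neighbours of Apoe and the 3 genes most like Apoe, Hmgcs1 and Sqle (predicted genes passed over), of which some are not reported here; Cyp51, Fdps, Gja1, Aldoc, Slc1a2, Aqp4, Ttr, Nr1h2, Nr1h3, Apoa1, Apob and Apod with age were named after their values were seen. Alternatives were other pseudocounts (1 and 0.01), other filters (none beyond a value above 0 in 3 libraries, and 5 FPKM), size factors, quantile normalization, a replicate block, eBayes without trend and robust, library weights, omission of each library, and fits of only the compared groups. Coordinates are from GENCODE (GRCm38) and promoters from RefSeq (GRCm38.p6).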

Additional observations from a re-analysis of the deposited data

How the results depend on the processing

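No alternative brought any of the 6 tested genes past the threshold in the 5 comparisons or in the genotype effect over both ages, which was added after the data were seen (780 values, lowest limma adjusted p 0.547). In 721 of these the direction was kept. Reversed outside the single-library omissions were Lrp1 with a pseudocount of 1 (0.17 for genotype at 3 months, 0.020 for age in controls), Cyp46a1 for genotype at 3 months (-0.0081 under size factors, -0.012 under quantile normalization, -0.016 with library weights), Sqle for the interaction under quantile normalization (0.0080) and Apoe over both ages with library weights (-0.068).

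Counts over all genes moved more. In the order genotype at 10 months, genotype at 3 months, interaction, age in controls, age in transgenics and genotype over both ages they were 1, 4, 5, 3, 2 and 5. Without the filter they were 2, 9, 9, 7, 7 and 9. With a filter at 5 FPKM they were 0, 2, 1, 0, 2 and 2. A pseudocount of 0.01 gave 2 for the interaction, and eBayes without trend and robust gave 6 for age in transgenics. Fitting only the compared groups gave 0 for genotype at 10 months, 14 at 3 months and 5 for age in controls. Leaving out single libraries gave 0 to 8, 4 to 12, 2 to 11, 3 to 10, 2 to 13 and 1 to 10 in that order.

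The replicate block gave 0 genes for genotype at 10 months, 1 for the interaction and 1 over both ages, and 0 of the 6 genes. Same-numbered libraries correlated between -0.123 and 0.0256 in their deviations from the group means, so the numbers were not taken to pair the animals.

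Leaving out 1 library moved log2 fold changes through 0 as follows. For genotype at 3 months the ranges were -0.081 to 0.40 for Abcg1, -1.54 to 1.70 for Lrp1, -0.13 to 0.29 for Sqle and -0.11 to 0.087 for Cyp46a1. At 10 months they were -0.58 to 0.18 for Apoe, -0.30 to 0.15 for Abcg1, -3.11 to 0.74 for Lrp1, -0.11 to 0.41 for Sqle and -0.0020 to 0.10 for Cyp46a1. For the interaction they were -2.93 to 1.20 for Lrp1, -0.24 to 0.28 for Sqle and -0.031 to 0.17 for Cyp46a1. For age in controls they were -1.57 to 1.40 for Lrp1 and -0.017 to 0.51 for Sqle. For age in transgenics they were -0.49 to 0.26 for Apoe, -0.11 to 0.38 for Abcg1, -3.41 to 0.72 for Lrp1, -0.23 to 0.15 for Hmgcs1 and -0.14 to 0.052 for Cyp46a1. Over both ages they were -0.15 to 0.22 for Apoe, -0.10 to 0.19 for Abcg1, -1.79 to 0.23 for Lrp1, -0.017 to 0.27 for Sqle and -0.027 to 0.071 for Cyp46a1. The cause of these changes was not tested. With 3 animals a group and unknown depth, differences of the size seen in Apoe, Abcg1 and Sqle lie within the intervals of no change.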
